A study of Mus musculus with 18 samples.

Results

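The genes described here are 8 metalloproteases, the membrane-anchored sheddases Adam8, Adam9, Adam10, Adam12, Adam15 and Adam17 and the secreted Adamts1 and Adamts4. They were taken by gene symbol, and all 8 of 8 were found among the 18922 genes of the deposited tables and were among the 15329 genes that passed a filter on low counts and were tested. Polyadenylated RNA of mouse brain tissue was sequenced from adult male mice of 8 to 10 weeks on a C57Bl6 background. All animals received a photothrombotic stroke, in which Rose Bengal (50 mg/kg, injected into the peritoneum) and a 525 nm laser at 125 mW close vessels in a 3 mm circle of cortex, and tissue was dissected 7 days later. Wild-type (WT) and Trem2 knockout (KO) mice each gave 3 libraries from the contralateral side, 3 from the peri-infarct zone and 3 from the infarct core, 18 libraries in 6 groups. The contralateral side comes from injured animals, so no group is an uninjured brain, and TTC staining guided the dissection in every group. The labels do not say whether a replicate number is a separate animal, so the p-values speak of the spread among the libraries alone, and part of it may be technical.

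ADAM proteases sit in the membrane and cut the outer part off other membrane proteins, a step called ectodomain shedding that releases cytokines, growth factors and soluble receptors and that can be followed by another cut within the membrane. Adam10 and Adam17 are the main sheddases of most cells and also cut Trem2, the lipid-sensing receptor of microglia and macrophages that the knockout lacks. ADAMTS proteases are secreted, and several of them, Adamts1 and Adamts4 included, cut the large chondroitin sulfate proteoglycans that fill the space between brain cells.

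Levels are given as CPM, counts scaled to library size with TMM normalization, and levels of different genes are compared only as TPM, which corrects for transcript length. Differences are log2 fold changes ± SE from edgeR's quasi-likelihood test fitted to all 18 libraries, with 3 libraries a group and Benjamini-Hochberg adjustment over all tested genes, and a gene was called at an adjusted p under 0.05. Total counts lay between 16993978 and 17691801 in 17 libraries. WT core replicate 3 stood apart, with a total of 18713770, and with 15.5% of its counts in its 10 most abundant genes against 3.27% to 5.38% elsewhere. Its 6 neuron markers were at a summed 7.78 CPM against 3827 and 4369 CPM in the other WT core libraries. Results that it moves are therefore also given from a fit without that library, which leaves 2 WT core libraries and assumes that they vary like the other groups. Trem2 itself was at 20.5 to 28.0 CPM in the WT and 0.337 to 0.902 CPM in the KO contralateral libraries. The KO libraries were far below the WT libraries in all 3 regions (-5.29 ± 0.62, -5.17 ± 0.58 and -6.11 ± 0.60, adjusted p = 0.011, 0.0062 and 0.0012; core -4.95 ± 0.23 without WT core replicate 3). Its residual reads in the KO core were at 5.23 to 8.24 CPM.

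Promoters of 5 of the 8 genes were found in a RefSeq table (assembly GRCm38.p6) and those of Adam9, Adam12 and Adamts4 were not. The 250 bases before the annotated start are shown for Adam8, whose level differed most between lesioned and contralateral tissue, for the pair of sheddases Adam10 and Adam17, whose levels moved by different amounts, and for Adamts1, the ADAMTS gene that rose in the core. Capitals mark matches on either strand to the GC box GGGCGG, the CCAAT box CCAAT, the E-box CACGTG and the TATA box TATAAA, so CCGCCC and ATTGG are matches on the other strand.
Adam8, chr7:139992563-139992812, minus strand: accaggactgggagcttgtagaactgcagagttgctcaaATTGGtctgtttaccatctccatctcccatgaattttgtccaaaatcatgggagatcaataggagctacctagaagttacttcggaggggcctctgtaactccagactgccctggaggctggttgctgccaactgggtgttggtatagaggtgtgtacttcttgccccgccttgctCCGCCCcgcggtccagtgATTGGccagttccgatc
Adam10, chr9:70678732-70678981, plus strand: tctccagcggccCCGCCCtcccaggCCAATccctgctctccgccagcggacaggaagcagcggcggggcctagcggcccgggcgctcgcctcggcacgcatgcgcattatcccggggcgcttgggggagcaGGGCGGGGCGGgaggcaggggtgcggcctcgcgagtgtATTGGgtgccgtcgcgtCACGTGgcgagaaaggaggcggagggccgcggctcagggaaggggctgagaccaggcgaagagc
Adam17, chr12:21373633-21373882, minus strand: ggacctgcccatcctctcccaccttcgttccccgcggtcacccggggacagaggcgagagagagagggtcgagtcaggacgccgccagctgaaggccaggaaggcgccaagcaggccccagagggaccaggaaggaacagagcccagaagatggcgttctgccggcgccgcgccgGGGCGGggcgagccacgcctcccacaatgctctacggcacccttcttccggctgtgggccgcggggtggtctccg
Adamts1, chr16:85803114-85803363, minus strand: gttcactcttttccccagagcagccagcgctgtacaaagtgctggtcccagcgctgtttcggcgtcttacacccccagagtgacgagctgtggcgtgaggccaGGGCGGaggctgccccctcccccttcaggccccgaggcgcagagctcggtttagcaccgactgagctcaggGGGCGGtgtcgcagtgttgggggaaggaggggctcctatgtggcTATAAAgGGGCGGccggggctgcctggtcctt

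All 4 windows held a GC box, as did 32.7% of 32851 promoters searched over the same 250 bases. Adam10 and Adamts1 held 3 GC boxes each and Adam8 and Adam17 held 1 each, and the last pair in Adam10 overlaps by a base. Adam8 and Adam10 held 2 CCAAT boxes each (33.8% of promoters hold 1 or more), and Adam17 and Adamts1 held none. Adam10 alone of the 4 held an E-box (6.02% of promoters), and Adamts1 alone held a TATA box, 32 bases before its start (12.4% of promoters). GC content was 52.8% in Adam8, 65.6% in Adamts1, 70.4% in Adam17 and 74% in Adam10. The letters of an AP-1 site (TGANTCA), an ETS site (CCGGAAGT), a PU.1 site (GAGGAAGT) and a CRE (TGACGTCA) were searched on both strands too and are in none of these windows. Of all promoters 6.75%, 2.88%, 2.44% and 1.55% hold them.

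Adam8, a sheddase known from leukocytes and activated microglia, had the largest log2 fold change of the 8 against contralateral tissue, in the peri-infarct zone and the core of both genotypes. It was at 3.79, 4.63 and 9.40 CPM in the WT contralateral libraries, at 122, 45.7 and 37.3 CPM in the peri-infarct zone and at 119.6, 204 and 1106 CPM in the core. KO levels were 2.42, 2.31 and 2.02 CPM contralaterally, 14.2, 16.9 and 23.5 CPM in the peri-infarct zone and 89.1, 118 and 75.7 CPM in the core. Every peri-infarct and core library lay above every contralateral library of its genotype, peri-infarct replicate 1 overlapped the core in WT, and the regions did not overlap in KO.

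In WT, Adam8 rose 11.5-fold in the peri-infarct zone (3.52 ± 0.74, adjusted p = 0.027) and 80.2-fold in the core (6.33 ± 0.84, adjusted p = 0.00013). Core exceeded peri-infarct tissue by 2.80 ± 0.70 (adjusted p = 0.034). Without WT core replicate 3 the core rise was 27.2-fold (4.76 ± 0.50, adjusted p = 6.5e-06) and core no longer passed against peri-infarct tissue (1.28 ± 0.43, adjusted p = 0.10). The peri-infarct call was lost without any 1 of WT contralateral replicates 1, 2 and 3 and WT peri-infarct replicates 1 and 3 (adjusted p = 0.069 to 0.15). That of core against peri-infarct tissue was lost also without any 1 of the 3 WT peri-infarct libraries (0.060 to 0.15). In KO the rises were 8.07-fold in the peri-infarct zone (3.01 ± 0.75, adjusted p = 0.035) and 41.8-fold in the core (5.39 ± 0.81, adjusted p = 0.00037). The KO peri-infarct call was lost without any 1 of the 3 KO contralateral or the 3 KO peri-infarct libraries, KO core replicate 1 or WT contralateral replicate 3 (adjusted p = 0.052 to 0.15). Core exceeded peri-infarct tissue in KO by 2.37 ± 0.70, which did not pass (adjusted p = 0.13) and did without WT core replicate 3 (2.44 ± 0.43, adjusted p = 0.00066). In bulk tissue, fewer cells of a type and less RNA per cell cannot be told apart.

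**Figure D1:**
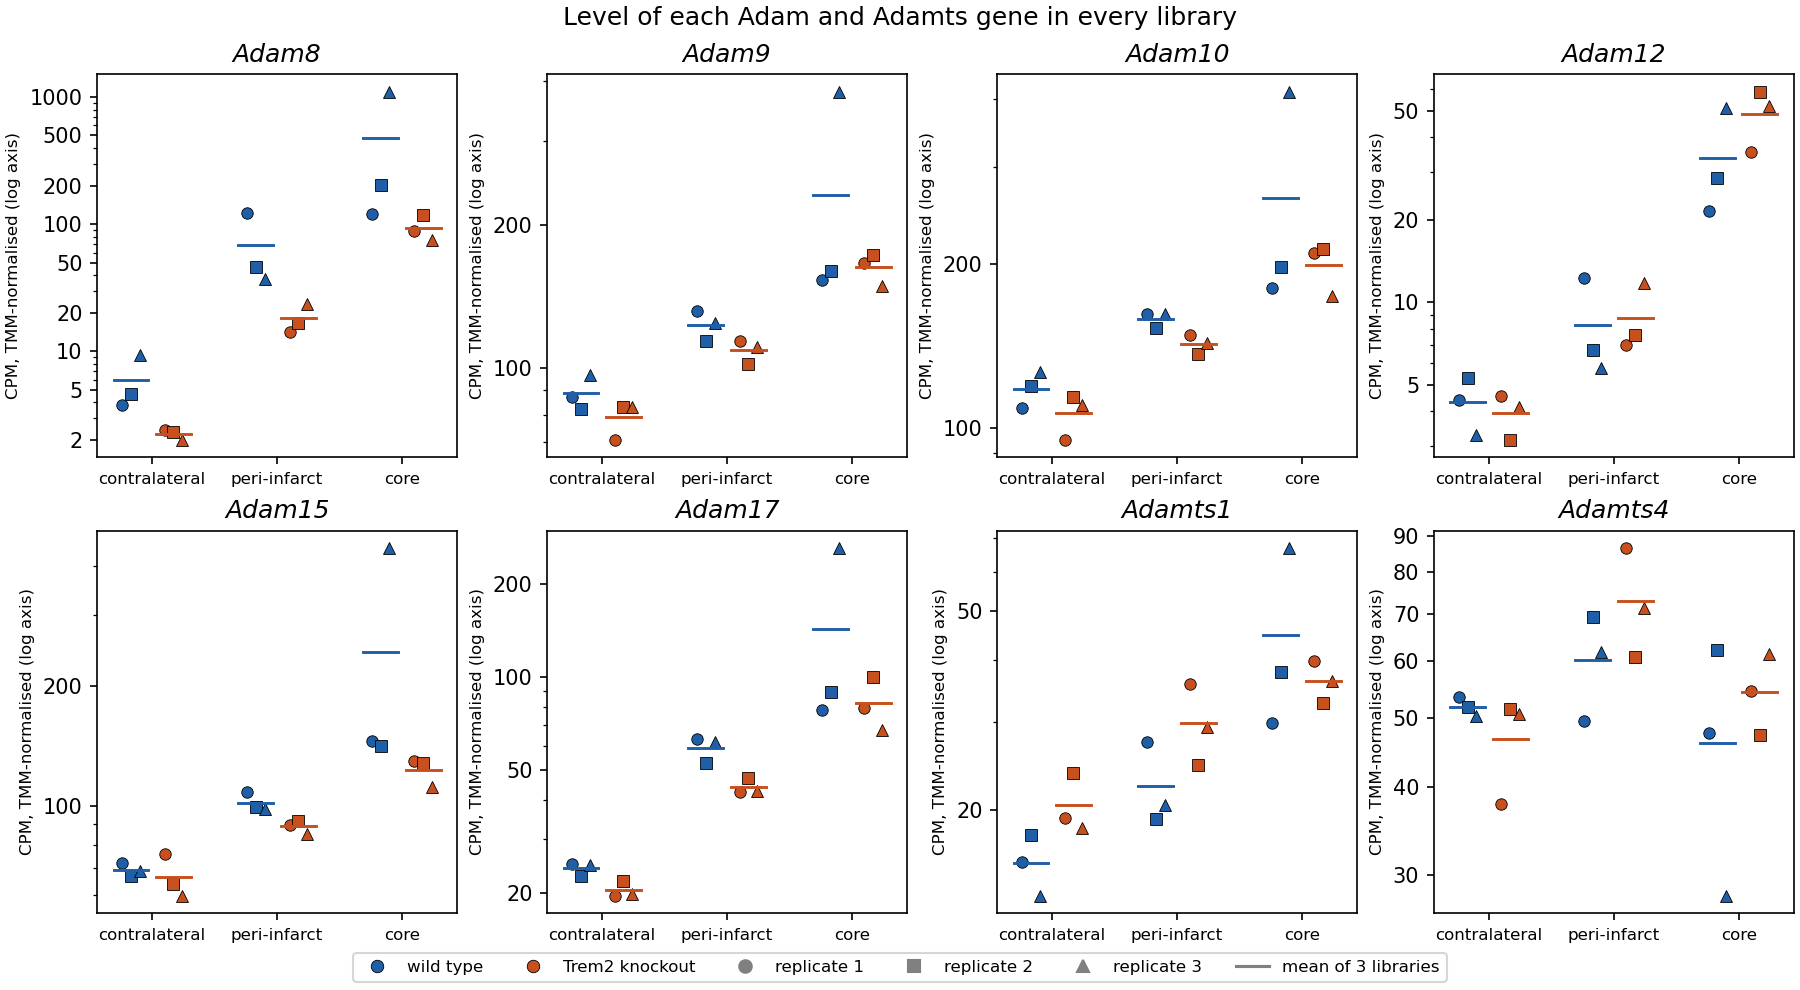
Level of each of the 8 genes in every library, as CPM with TMM normalization on a log axis, by region (horizontal) and genotype (blue WT, orange KO), with a bar at the mean of the 3 libraries of a group. Adam8 spans from 2.02 to 1106 CPM, WT core replicate 3 (blue triangle) lies above the other WT core libraries in every panel but that of Adamts4, and Adamts4 stays between 28.1 and 86.6 CPM.

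Adam17, the enzyme that releases TNF and sheds the TNF receptors, counted 25.0, 22.7 and 24.7 CPM in the WT contralateral libraries, 63.1, 52.6 and 61.7 CPM in the peri-infarct zone and 78.2, 89.4 and 261 CPM in the core. The KO libraries had 19.6, 21.9 and 20.0 CPM contralaterally, 42.4, 47.1 and 42.9 CPM in the peri-infarct zone and 79.6, 99.9 and 67.5 CPM in the core. The 3 regions did not overlap in either genotype. Adam17 rose in the core 5.92-fold in WT (2.57 ± 0.35, adjusted p = 0.00014; without WT core replicate 3, 3.46-fold, 1.79 ± 0.13, adjusted p = 1.7e-07) and 4.02-fold in KO (2.01 ± 0.34, adjusted p = 0.00081).

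The peri-infarct difference of Adam17 was 1.29 ± 0.34 in WT and 1.11 ± 0.34 in KO, just short of the threshold (adjusted p = 0.053 and 0.082). Both passed without WT core replicate 3 (1.26 ± 0.12 and 1.03 ± 0.13, adjusted p = 7.4e-06 and 4.2e-05) and without WT core replicate 1 (adjusted p = 0.026 and 0.048). The WT difference also passed without WT core replicate 2 (adjusted p = 0.032). DESeq2 with all libraries called both the WT and the KO difference (1.24 and 1.06, adjusted p = 0.016 and 0.047). With the replicate number as a block, the WT difference passed too (1.29, adjusted p = 0.048), and with it the number of the 8 genes called in that comparison went from 1 to 2. Core exceeded peri-infarct tissue by 1.27 ± 0.33 in WT (adjusted p = 0.035), by 0.53 ± 0.13 without WT core replicate 3 (adjusted p = 0.035). That call was lost without any 1 of the WT peri-infarct libraries or KO peri-infarct replicate 2 (adjusted p = 0.0502 to 0.15). In KO it was 0.90 ± 0.33 (adjusted p = 0.17) and 0.96 ± 0.12 without WT core replicate 3 (adjusted p = 5.8e-05).

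Adam10, the constitutive alpha-secretase that cuts the amyloid precursor protein and Notch receptors, was at 109, 119 and 127 CPM in the WT contralateral libraries, 162, 153 and 162 CPM in the peri-infarct zone and 180.4, 197 and 413 CPM in the core. In KO it was at 95.4, 114 and 110.4 CPM, at 148, 137 and 143 CPM and at 209, 213 and 174 CPM. Regions again did not overlap within a genotype, but the steps were small. Adam10 rose 2.23-fold in the WT core (1.16 ± 0.24, adjusted p = 0.0019; 1.59-fold, 0.67 ± 0.10, adjusted p = 8.4e-05 without WT core replicate 3) and 1.86-fold in the KO core (0.90 ± 0.23, adjusted p = 0.013). The KO call was lost without KO contralateral replicate 1 (0.82, adjusted p = 0.058). Its peri-infarct difference of 0.42 ± 0.23 in both WT and KO did not pass (adjusted p = 0.54 and 0.46). It passed in the fit without WT core replicate 3 (0.39 ± 0.09 and 0.35 ± 0.09, adjusted p = 0.0067 and 0.013).

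Core exceeded peri-infarct tissue for Adam10 by 0.73 ± 0.23 in WT (adjusted p = 0.054), which passed without WT core replicate 1 or 2 (0.99 and 0.90, adjusted p = 0.0064 and 0.016) and not without replicate 3 (0.28 ± 0.10, adjusted p = 0.12). DESeq2 with all libraries called this WT difference (0.77, adjusted p = 0.019). In KO it was 0.48 ± 0.23 (adjusted p = 0.29) and 0.54 ± 0.09 without WT core replicate 3 (adjusted p = 0.00034).

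The ratio of the TPM of Adam17 to that of Adam10 compares the 2 sheddases of Trem2 within a library, free of the library's scale. It was 0.243, 0.204 and 0.203 in the WT contralateral libraries, 0.407, 0.363 and 0.398 in the peri-infarct zone and 0.456, 0.475 and 0.662 in the core. In KO it was 0.217, 0.201 and 0.189, then 0.297, 0.361 and 0.313, then 0.398, 0.489 and 0.404. Every peri-infarct library lay above every contralateral library and every core library above every peri-infarct library of its genotype, with or without WT core replicate 3. By exact 2-sided permutation, 3 libraries against 3 cannot give a p below 0.1. The ratio is given as a description, and no test over both genotypes was run.

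**Figure D2:**
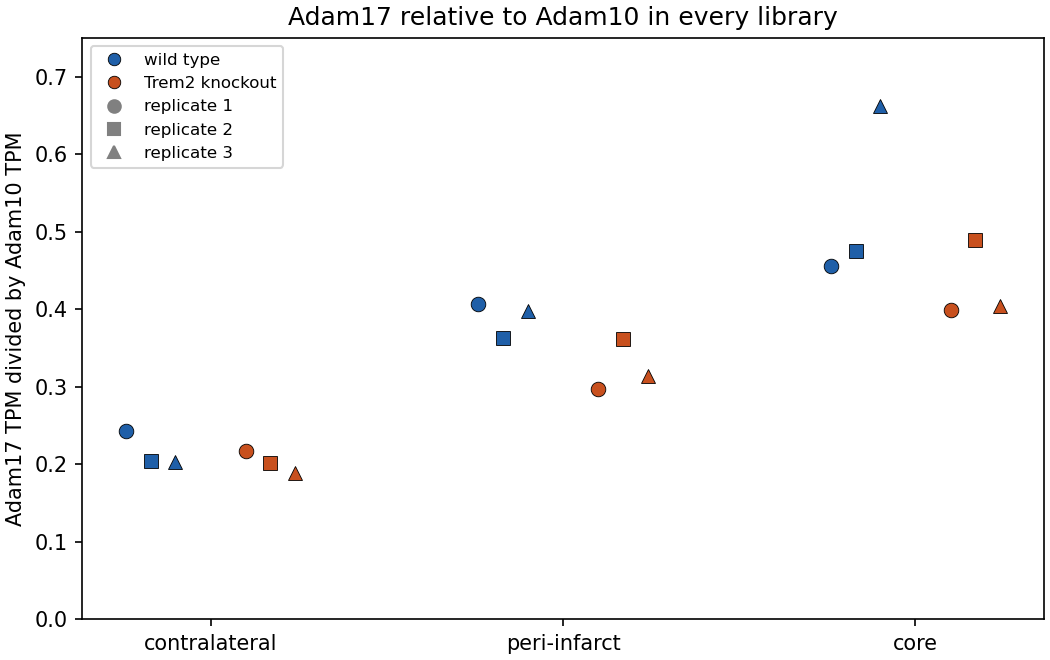
TPM of Adam17 divided by TPM of Adam10 in each library (vertical, from 0) by region and genotype (blue WT, orange KO; marker shape is the replicate number). The ratio lies between 0.189 and 0.243 contralaterally, between 0.297 and 0.407 in the peri-infarct zone and between 0.398 and 0.662 in the core.

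Adam9, a widely expressed sheddase that can also act as an alpha-secretase, followed Adam10 closely. It counted 87.1, 82.4 and 97.0 CPM in the WT contralateral, 132, 114 and 125 CPM in the peri-infarct and 153, 160.0 and 379.9 CPM in the core libraries. KO libraries had 71.0, 83.1 and 83.2 CPM, 114, 102 and 111 CPM, and 166, 173 and 149 CPM. No library of 1 region reached the range of another region in the same genotype. The core rise was 2.60-fold in WT (1.38 ± 0.26, adjusted p = 0.0012; 1.75-fold, 0.81 ± 0.10, adjusted p = 1.0e-05 without WT core replicate 3) and 2.06-fold in KO (1.04 ± 0.26, adjusted p = 0.010). WT core exceeded peri-infarct tissue by 0.90 ± 0.26 (adjusted p = 0.040), with 0.37 ± 0.10 (adjusted p = 0.040) without WT core replicate 3. Of the 18 fits that leave out 1 library, 14 lost this call, with log2 fold changes of 0.85 to 0.95 and adjusted p of 0.053 to 0.15. The 14 were those without each KO library, each WT peri-infarct library and WT contralateral replicates 1 and 2.

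Adam15, a sheddase known from vessel walls and epithelia, was at 72.0, 66.7 and 68.7 CPM in the WT contralateral, 109, 99.4 and 98.0 CPM in the peri-infarct and 146, 142 and 443 CPM in the core libraries. Its KO levels were 75.8, 63.7 and 59.5 CPM, 89.7, 91.9 and 85.0 CPM, and 129.8, 128 and 111 CPM. The regions did not overlap in either genotype. The WT core rise was 3.52-fold (1.81 ± 0.33, adjusted p = 0.00082) and 2.07-fold without WT core replicate 3 (1.05 ± 0.09, adjusted p = 5.7e-07). The KO core difference, 1.86-fold (0.89 ± 0.32), missed the threshold (adjusted p = 0.059) and passed without WT core replicate 1, 2 or 3 (adjusted p = 0.039, 0.030 and 5.2e-07). DESeq2 with all libraries called this KO difference too (0.87, adjusted p = 0.042). WT core exceeded peri-infarct tissue by 1.25 ± 0.32 (adjusted p = 0.034; 0.52 ± 0.09, adjusted p = 0.017 without WT core replicate 3), a call lost without any 1 of the 3 WT peri-infarct libraries (adjusted p = 0.068 to 0.15).

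Adam12, known from mesenchymal and muscle cells, where it cuts insulin-like growth factor binding proteins and heparin-binding EGF, was the scarcest of the 8 per length in contralateral tissue. WT libraries had 4.41, 5.28 and 3.29 CPM contralaterally, 12.3, 6.72 and 5.75 CPM in the peri-infarct zone and 21.5, 28.4 and 51.1 CPM in the core. KO libraries had 4.55, 3.16 and 4.16 CPM, 6.96, 7.60 and 11.8 CPM, and 35.4, 58.8 and 52.2 CPM. Each region lay above the one before it without overlap, and without WT core replicate 3 every KO core library also lay above the 2 WT core libraries, as for 18.1% of tested genes.

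Adam12 rose 7.76-fold in the WT core (2.96 ± 0.38, adjusted p = 0.00012; 5.72-fold, 2.52 ± 0.33, adjusted p = 2.8e-05 without WT core replicate 3) and 12.3-fold in the KO core (3.62 ± 0.39, adjusted p = 0.00012). WT core exceeded peri-infarct tissue by 2.03 ± 0.36 (adjusted p = 0.034; 1.62 ± 0.31, adjusted p = 0.021 without WT core replicate 3), a call lost without WT peri-infarct replicate 2 or 3 (adjusted p = 0.15 and 0.11). KO core exceeded peri-infarct tissue by 2.47 ± 0.37 and missed the threshold (adjusted p = 0.059). It passed without WT core replicate 1, 2 or 3 or WT peri-infarct replicate 1 (adjusted p = 0.037, 0.042, 4.7e-05 and 0.019). The 6 fibroblast markers summed to 1569, 1619 and 4779.8 CPM in the WT core and 1850.1, 3617 and 2814 CPM in the KO core, with none at 0. They summed to 726 CPM in WT peri-infarct replicate 1 against 124 and 133 CPM in the other WT peri-infarct libraries. Their part in the Adam12 levels was not tested.

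Adamts1, a secreted protease of versican and aggrecan, counted 15.7, 17.8 and 13.5 CPM in the WT contralateral, 27.3, 19.2 and 20.4 CPM in the peri-infarct and 29.9, 37.8 and 66.9 CPM in the core libraries. In KO it was at 19.3, 23.7 and 18.4 CPM, 35.7, 24.6 and 29.3 CPM, and 39.8, 32.7 and 36.2 CPM. WT regions did not overlap, while the KO core and peri-infarct libraries did. Adamts1 rose 2.86-fold in the WT core (1.52 ± 0.26, adjusted p = 0.00053; 2.15-fold, 1.10 ± 0.19, adjusted p = 0.00025 without WT core replicate 3) and 1.77-fold in the KO core (0.82 ± 0.25, adjusted p = 0.031). The KO call was lost without KO contralateral replicate 1 or 3 or any 1 of the 3 KO core libraries (adjusted p = 0.051 to 0.10). WT core exceeded peri-infarct tissue by 1.01 ± 0.25 (adjusted p = 0.034), which was lost without WT core replicate 3 (0.63 ± 0.18, adjusted p = 0.059) and without any 1 of the WT peri-infarct libraries (adjusted p = 0.061 to 0.15).

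Adamts4, an aggrecanase that oligodendrocytes express in the brain, did not follow the others. WT libraries had 53.5, 51.7 and 50.2 CPM contralaterally, 49.5, 69.3 and 61.7 CPM in the peri-infarct zone and 47.6, 62.3 and 28.1 CPM in the core. KO libraries had 37.8, 51.4 and 50.6 CPM, then 86.6, 60.8 and 71.2 CPM, then 54.5, 47.2 and 61.3 CPM. The WT regions overlapped, and in KO the peri-infarct libraries lay above the contralateral ones. Core against contralateral was -0.17 ± 0.23 in WT (adjusted p = 0.54; interval of ± 2 SE, -0.64 to 0.30) and 0.22 ± 0.23 in KO (adjusted p = 0.49). The WT value was 0.08 ± 0.18 without WT core replicate 3 (adjusted p = 0.76). The KO peri-infarct difference was 0.64 ± 0.24 (adjusted p = 0.16) and passed without WT core replicate 3 (0.57 ± 0.16, adjusted p = 0.021). WT core was below peri-infarct tissue by -0.39 ± 0.24 (adjusted p = 0.24), a difference that passed without WT core replicate 2 (-0.67, adjusted p = 0.043).

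The 6 oligodendrocyte markers, none at 0, summed to 848 CPM in WT core replicate 3, where Adamts4 was lowest, and to 11167 CPM in KO peri-infarct replicate 1, where it was highest. Summed over 6 macrophage markers, none at 0, the 2 WT core libraries with less Adam8 had 1708 and 2359 CPM and WT core replicate 3 had 12078 CPM. Adam8 was also highest among the peri-infarct libraries where these markers were, in WT replicate 1 at 1828 CPM. Whether cell numbers account for either pattern was not tested.

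**Figure D3:**
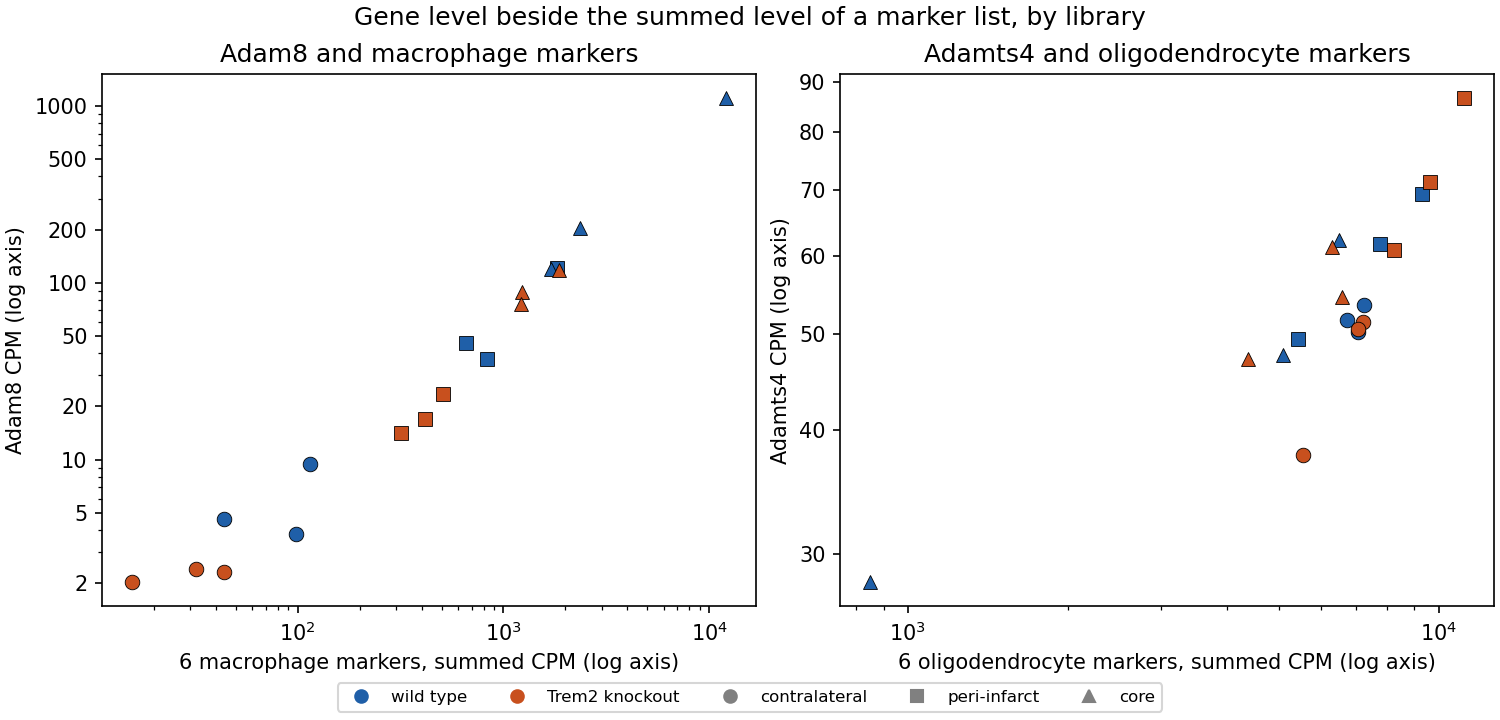
Adam8 against the summed level of 6 macrophage markers (left) and Adamts4 against that of 6 oligodendrocyte markers (right) in the 18 libraries, all axes in CPM on a log scale, colour for genotype and shape for region. WT core replicate 3 is at the upper right on the left (12078 and 1106 CPM) and at the lower left on the right (848 and 28.1 CPM).

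Counted over the 8 genes, WT core against contralateral called 7 higher and 0 lower, with a median log2 fold change of 1.67 against -0.03 over all tested genes, of which 29.1% were called higher and 11.5% lower. Of the same 8, 7 had core libraries wholly above the contralateral ones, as had 30.9% of tested genes. The KO core called 6 higher (19.7% of tested genes), all but Adam15 and Adamts4, with a median of 0.97 against -0.01, and 7 did not overlap (33.6%). WT core against peri-infarct tissue called 6 higher (12.3% of tested genes), all but Adam10 and Adamts4, and 6 did not overlap (19.4%). The KO core against peri-infarct tissue called 0 of the 8 and 0% of tested genes by edgeR, with 4 of the 8 at an unadjusted p under 0.05 (18.6% of tested genes). DESeq2 called 2 there, Adam8 and Adam12 (4.4% of tested genes called higher), and 6 of the 8 did not overlap (26.1%).

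The peri-infarct zone had smaller differences, and 1 gene of 8, Adam8, was called higher there in each genotype, against 3.27% of tested genes in WT and 4.42% in KO. All 8 log2 fold changes were above 0 in both genotypes, with medians of 0.54 and 0.60 against 0.02 and 0.04 over all genes. Of the 8, 7 in WT and 8 in KO had peri-infarct libraries wholly above the contralateral ones (22.3% and 25.7% of tested genes). Leaving out WT core replicate 3, which is no part of these comparisons, narrowed the spread the groups share, and Adam17's SE in WT went from 0.34 to 0.12. In that fit 5 of the 8 were called higher in the WT peri-infarct zone (14.2% of tested genes), namely Adam8, Adam9, Adam10, Adam15 and Adam17. The KO peri-infarct zone then called 7 higher (13.7%), all but Adamts1, and the KO core against peri-infarct tissue 6 (24.3%), all but the 2 Adamts genes. WT core against contralateral then still called 7 (23.6%), the KO core 7 (29.6%), all but Adamts4. WT core against peri-infarct tissue called 4 (4.88%), namely Adam9, Adam12, Adam15 and Adam17. Fitted on the 6 compared libraries alone, WT core against contralateral called 0 of the 8, and so did WT core against peri-infarct tissue, where limma-voom and the replicate block also called 0. In these 4 fits 0% of all tested genes were called in those comparisons. Adam8 in the KO peri-infarct zone was not called by limma-voom or without the filter on low counts, where 1.86% and 2.18% of tested genes were called higher.

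**Figure D4:**
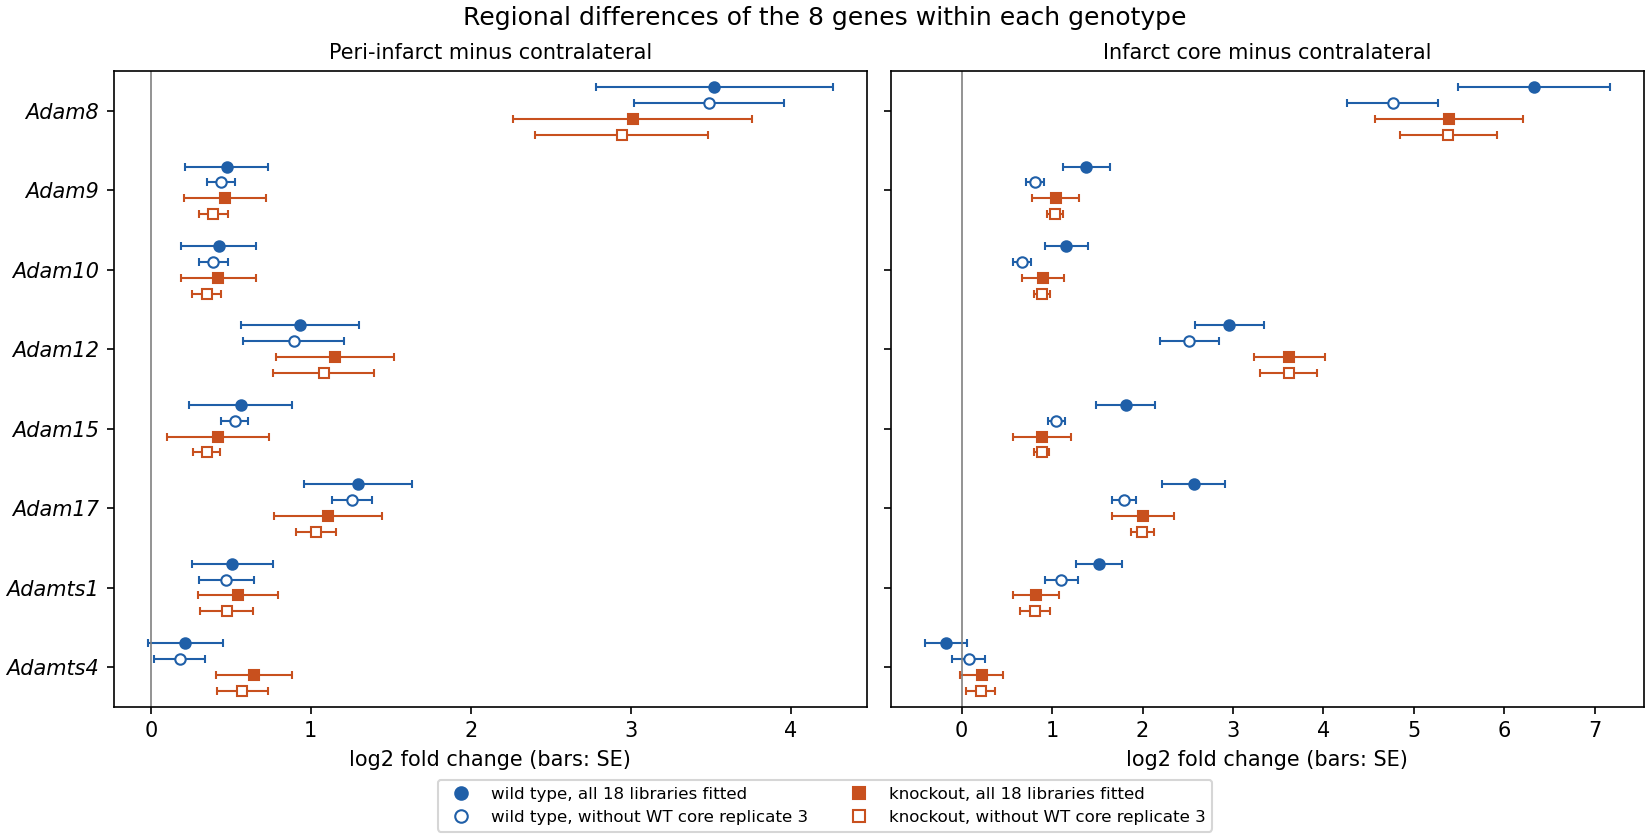
Log2 fold change ± SE of each gene in the peri-infarct zone (left) and the core (right) against contralateral tissue, for WT (blue circles) and KO (orange squares), with all 18 libraries fitted (filled) and without WT core replicate 3 (open). The open bars are shorter throughout, and the WT core value of Adam8 goes from 6.33 to 4.76.

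By transcript abundance per length, Adam10, Adam15 and Adam9 were the most abundant of the 8 in contralateral tissue, at 59.6 ± 4.04, 55.8 ± 2.36 and 51.6 ± 3.64 TPM in WT (SD, n = 3), ranges that touch or overlap. Adamts4 followed at 18.8 ± 0.789, Adam17 at 12.9 ± 0.506, Adamts1 at 7.44 ± 1.14, Adam8 at 4.47 ± 2.27 and Adam12 at 1.28 ± 0.306 TPM. The KO contralateral order was the same, except that Adam8, at 1.63 ± 0.151 TPM, was nearer to Adam12 at 1.14 ± 0.187 TPM. In the core the order changed: Adam8 had the highest mean in WT at 230 ± 208 TPM, with 111 ± 41.0 TPM over the 2 libraries without replicate 3. Its WT core libraries ran from 82.4 to 468 TPM, and its lowest was below the lowest of Adam15, 102 TPM. The KO core had Adam10 at 89.8 ± 6.40, Adam15 at 89.1 ± 4.08, Adam9 at 84.7 ± 3.65 and Adam8 at 64.9 ± 13.2 TPM, and the first 3 did not differ beyond their spread.

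Between genotypes, Adam8 was lower in KO in every region, with no KO library reaching the lowest WT library of its region. In the core the ranges nearly touched, with the highest KO library at 118 CPM and the lowest WT library at 119.6 CPM. The differences were -1.40 ± 0.73 contralaterally, -1.91 ± 0.69 in the peri-infarct zone and -2.34 ± 0.69 in the core, and none passed (adjusted p = 1, 1 and 0.40). Only 80 genes, 0.522% of those tested, were lower without overlap in all 3 regions, and no other of the 8 was among them. As the mean over the 3 regions the difference was 3.68-fold (-1.88 ± 0.40), with an adjusted p of 0.092 by edgeR and 0.00036 by DESeq2 (1.66% of tested genes called lower by DESeq2). With edgeR it was called without WT core replicate 3 (2.54-fold, -1.35 ± 0.28, adjusted p = 0.015) and without WT core replicate 1 (-2.03, adjusted p = 0.028). Over the alternatives that change 1 setting the adjusted p of this mean ranged from 0.00036 to 0.25, and DESeq2 without WT core replicate 3 gave 0.00013. This mean treats the libraries of the 3 regions as independent, and the labels do not say whether regions share animals. If they do, its SE and adjusted p may be too small, and the same holds for other means over regions. The core difference depended on WT core replicate 3 and was -0.76 ± 0.43 without it (adjusted p = 0.36), while the other regions stayed at -1.37 ± 0.59 and -1.92 ± 0.42 (adjusted p = 0.45 and 0.10).

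The summed macrophage markers were lower in KO in the peri-infarct zone and contralaterally, where the ranges nearly touched. Their summed level was 43.8 to 114 CPM in WT and 15.6 to 43.7 CPM in KO contralaterally, and 657 to 1828 and 317 to 507 CPM in the peri-infarct zone. In the core the ranges overlapped, at 1708 to 2359 CPM in WT without replicate 3 and 1211 to 1867 CPM in KO. Of the 6 macrophage markers, 0 were called in the mean difference. The 6 microglia markers were at 1345 to 1663 CPM in WT and 1017 to 1165 CPM in KO in the peri-infarct zone, and overlapped in the core. The 6 neutrophil markers, up to 1 of them at 0 in a core library, went the other way in the core only without WT core replicate 3. They summed to 11.7 and 17.3 CPM in WT core replicates 1 and 2, 89.9 CPM in replicate 3 and 35.2 to 68.0 CPM in the KO core. Elsewhere their ranges overlapped between genotypes. The part of any of these lists in the Adam8 difference was not tested.

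None of the 8 genes was called between genotypes in any region or in the mean by edgeR (0 of 8). Of tested genes, 0.00652%, 0.00652% and 0.013% were called in either direction in contralateral, peri-infarct and core tissue, and 0.228% in the mean. At an unadjusted p under 0.05 there were 0, 1 and 3 of the 8 in contralateral, peri-infarct and core tissue and 3 in the mean, against 2.96%, 3.23%, 11.9% and 13% of tested genes. Leaving out WT core replicate 3 made these 2, 5, 2 and 4, against 10.2%, 13.6%, 19.7% and 26%. DESeq2 called 0, 0 and 0 in the regions (0.0932%, 0.111% and 0.613% of tested genes in either direction) and 1, Adam8, in the mean. Without WT core replicate 3, edgeR called Adam8 alone in the mean (5.2% of tested genes called lower). DESeq2 without that library called Adam8 lower in the peri-infarct zone (-1.90, adjusted p = 0.011; 1.01% of tested genes called lower) and Adam12 higher in the core (0.98, adjusted p = 0.038; 2.21% called higher). In the mean it called Adam8, Adam15 and Adam17 lower (8.57%) and Adamts1 higher (3.76%), the last 3 by log2 fold changes of -0.16, -0.23 and 0.30.

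Adam15 and Adam17 were lower in the KO core by -0.98 ± 0.32 and -0.80 ± 0.33 (adjusted p = 0.40 each). Without WT core replicate 3 these were -0.20 ± 0.09 and -0.00 ± 0.13 (adjusted p = 0.25 and 0.99). Adam17 had a difference in the peri-infarct zone that did not rest on that library, -0.42 ± 0.33 with it and -0.44 ± 0.12 without it (adjusted p = 1 and 0.17). There the KO libraries lay wholly below the WT ones, as they did for Adam8, Adam10 and Adam15 (4 of the 8, against 9.27% of tested genes). In contralateral tissue 2 of the 8, Adam8 and Adam17, lay wholly below (10.5% of tested genes), and Adamts1 lay wholly above (6.43%), by 0.39 ± 0.25 (adjusted p = 1). In the core Adam8 and Adam15 lay wholly below (5.09%), and without WT core replicate 3 there were again 2 of the 8 (18.6%). Adam12 was the 1 gene with a higher KO core level of some size, 0.54 ± 0.35 (adjusted p = 0.52; interval -0.16 to 1.23) and 0.99 ± 0.31 without WT core replicate 3 (adjusted p = 0.097).

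For Adam9, Adam10 and Adamts1 the sign of the KO core difference turned with that library, from -0.50 ± 0.26, -0.41 ± 0.23 and -0.31 ± 0.25 to 0.08 ± 0.10, 0.09 ± 0.10 and 0.12 ± 0.18. Differences between genotypes in the response itself were tested as an interaction. None of the 8 passed for the peri-infarct zone or the core (0% of tested genes called by edgeR in either, 0 of the 8 at an unadjusted p under 0.05 against 0.731% and 2.39% of tested genes, and 0 of the 8 by DESeq2). For Adam8 the interaction was -0.51 ± 0.99 in the peri-infarct zone and -0.94 ± 0.98 in the core, and the core value was 0.61 ± 0.74 without WT core replicate 3. For Adam12 in the core it was 0.67 ± 0.51, and 1.10 ± 0.45 without that library (adjusted p = 0.98 and 0.48).

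**Figure D5:**
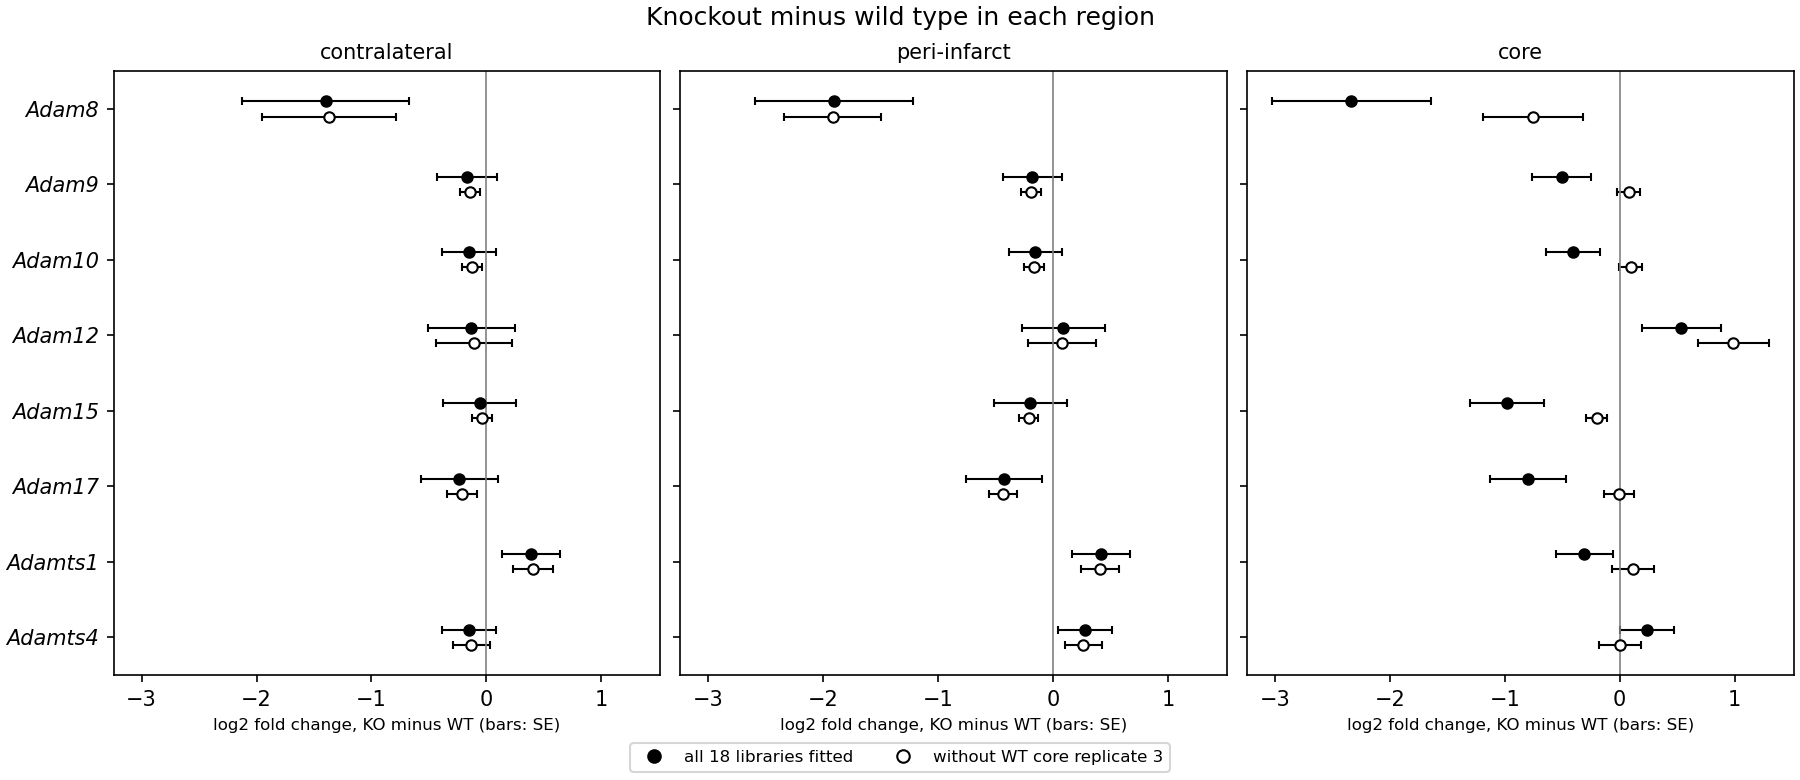
Log2 fold change ± SE of KO minus WT for each gene in the 3 regions, with all 18 libraries fitted (filled) and without WT core replicate 3 (open). Adam8 lies left of 0 in each region (-1.40, -1.91 and -2.34), and in the core the values of Adam9, Adam10, Adam15 and Adam17 move to between -0.20 and 0.09 without that library.

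The counts of pathway genes called in the core are to be read against all tested genes, of which 29.1% were called higher and 11.5% lower in the WT core and 19.7% higher and 3.31% lower in the KO core. Leaving out WT core replicate 3 made these 23.6% and 16.6% in WT and 29.6% and 27.8% in KO. The maturation and trafficking partners bring these proteases to the surface or, as convertases, remove their prodomains. Of 12 tested, 6 were called higher in the WT core (29.1% of all tested genes) and 5 in the KO core (19.7%), with Tspan33, a tetraspanin that binds Adam10, lower in the KO core (-0.59 ± 0.17, adjusted p = 0.021). Leaving out WT core replicate 3 gave 6 higher and 1 lower in WT and 6 higher and 2 lower in KO. Rhbdf2, the inactive rhomboid that carries Adam17 to the surface in immune cells, rose from 1.95 ± 0.294 CPM (SD, n = 3) contralaterally to 26.1 ± 23.1 CPM in the WT core, or 12.8 ± 1.28 CPM over WT core replicates 1 and 2 (3.74 ± 0.52, adjusted p = 0.00016; 2.71 ± 0.28 without WT core replicate 3). In KO it rose by 3.11 ± 0.52 (adjusted p = 0.00073). Its relative Rhbdf1 rose by 1.13 ± 0.13 and 1.11 ± 0.13 (adjusted p = 0.00011 and 0.00019). Furin, the convertase that removes the prodomain of ADAM proteases, rose by 2.02 ± 0.37 and 1.31 ± 0.36 (adjusted p = 0.00085 and 0.017; WT 1.14 ± 0.11 without WT core replicate 3).

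Of the 5 inhibitors tested, 2 were called higher in each core (29.1% of all tested genes in WT, 19.7% in KO), and also 2 in each without WT core replicate 3 (23.6% and 29.6%). Timp1 rose by 3.79 ± 0.68 in WT and 4.85 ± 0.73 in KO (adjusted p = 0.00082 and 0.00037; WT 3.16 ± 0.57 without WT core replicate 3). Timp2 rose by 1.61 ± 0.35 and 1.17 ± 0.35 (adjusted p = 0.0029 and 0.026), with 0.86 ± 0.17 in WT without replicate 3. Timp3, the member known to inhibit Adam17 and the aggrecanases, was not called in either core, and neither were the remaining inhibitors Timp4 and Reck.

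Among 22 tested shed substrates, 13 were called higher in each core (29.1% of all tested genes in WT, 19.7% in KO), and 2 lower in the WT core (11.5%), the amyloid precursor App (-0.46 ± 0.14, adjusted p = 0.019) and neuregulin Nrg1 (-1.47 ± 0.54, adjusted p = 0.045; -0.95 ± 0.26, adjusted p = 0.0094 without WT core replicate 3). Tnfrsf1a, the TNF receptor that Adam17 sheds, rose by 2.77 ± 0.33 in WT and 2.44 ± 0.33 in KO (adjusted p = 0.00011 and 0.00022). The hyaluronan receptor Cd44 rose by 3.40 ± 0.41 and 3.62 ± 0.41 (adjusted p = 0.00011 and 0.00015), and the adhesion molecule Icam1 by 2.16 ± 0.36 and 3.03 ± 0.38 (adjusted p = 0.0005 and 0.0002). Without WT core replicate 3 the WT values were 2.09 ± 0.15, 2.59 ± 0.20 and 1.65 ± 0.29. In that fit 11 substrates were called higher and 4 lower in the WT core (23.6% and 16.6% of all tested genes) and 15 higher and 6 lower in the KO core (29.6% and 27.8%), with the fractalkine gene Cx3cl1, the adhesion molecule L1cam, App and Nrg1 lower in both. A list of 9 genes held those of gamma-secretase, which cuts within the membrane after shedding, and the beta-secretases Bace1 and Bace2, which do not. Of these 9, 5 were called higher and 1 lower in the WT core (29.1% and 11.5% of all tested genes) and 3 higher in the KO core (19.7%). In the fit without WT core replicate 3 the WT core called 4 higher and 2 lower (23.6% and 16.6%) and the KO core 6 higher and 2 lower (29.6% and 27.8%), the lower genes being Aph1b and the beta-secretase Bace1 in both. The gene lower in the WT core with all libraries was Aph1b (-0.79 ± 0.28, adjusted p = 0.035; -0.44 ± 0.10 without that library). Nicastrin (Ncstn), a subunit of gamma-secretase, rose by 1.41 ± 0.28 and 0.87 ± 0.28 (adjusted p = 0.0016 and 0.037; WT 0.80 ± 0.11 without WT core replicate 3). Aph1a, another subunit, rose by 1.08 ± 0.22 in WT (adjusted p = 0.0018; 0.62 ± 0.08 without that library) and differed by 0.62 ± 0.22 in KO (adjusted p = 0.054; 0.61 ± 0.07 and called, adjusted p = 4.7e-06, without it). Bace2, a beta-secretase, rose in the KO core by 0.85 ± 0.21 (adjusted p = 0.0092) and differed by 0.42 ± 0.21 in WT (adjusted p = 0.12).

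A list of 5 matrix substrates held proteoglycans and reelin, a glycoprotein that is not a proteoglycan. Versican (Vcan), a substrate of Adamts1 and Adamts4, was the 1 of these 5 called in either core (29.1% and 19.7% of all tested genes called higher). It rose by 1.62 ± 0.25 in WT and 1.54 ± 0.25 in KO (adjusted p = 0.00028 and 0.00056). Its WT core libraries were at 51.1, 52.1 and 113 CPM, the last in replicate 3. Aggrecan (Acan) differed by -0.72 ± 0.28 and -0.39 ± 0.28 (adjusted p = 0.054 and 0.33) and reelin (Reln) by -1.64 ± 0.69 and -0.59 ± 0.67 (adjusted p = 0.069 and 0.52). In the fit without WT core replicate 3, reelin fell in both (-1.09 ± 0.25 and -0.60 ± 0.21, adjusted p = 0.0030 and 0.026), and in KO brevican (Bcan) fell too (-0.49 ± 0.12, adjusted p = 0.0022).

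Of 7 other Adam genes tested, 1 was called higher and 1 lower in the WT core (29.1% and 11.5% of all tested genes) and 1 higher in the KO core (19.7%), with medians of -0.96 and -0.46. In the fit without WT core replicate 3 these counts were 0 higher and 3 lower in WT (23.6% and 16.6%) and 2 higher and 3 lower in KO (29.6% and 27.8%), the 3 lower genes being Adam11, Adam22 and Adam23 in both. Adam21 was the gene that fell in the WT core with all libraries (-1.19 ± 0.36, adjusted p = 0.019), a call lost without WT core replicate 3 (-0.83 ± 0.35, adjusted p = 0.096). Adam22 and Adam23, which lack protease activity and act at synapses, differed by -1.23 ± 0.61 and -1.29 ± 0.50 in the WT core (adjusted p = 0.11 and 0.052). In the fit without WT core replicate 3 both fell in WT (-0.68 ± 0.08 and -0.78 ± 0.11, adjusted p = 1.3e-05 and 6.3e-05) and in KO (-0.73 ± 0.07 and -0.89 ± 0.10, adjusted p = 9e-07 and 2.8e-06). Adam19 rose in the KO core (0.48 ± 0.15, adjusted p = 0.027). Adam33 rose in the WT core (1.52 ± 0.48, adjusted p = 0.023), a call lost without WT core replicate 3 (0.60 ± 0.35, adjusted p = 0.19). The 6 neuron markers, none at 0, were at 5943 to 7401 CPM in WT contralateral tissue, 3827 and 4369 CPM in WT core libraries 1 and 2 and 2820.0 to 3002 CPM in the KO core. Their part in the lower levels was not tested.

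Of 22 other Adamts and Adamts-like genes, all tested, 9 were called higher and 1 lower in each core (29.1% and 11.5% of all tested genes in WT, 19.7% and 3.31% in KO), with medians of 0.05 in WT and 0.26 in KO. The lower genes were Adamtsl1 in WT (-0.69 ± 0.25, adjusted p = 0.041; call lost without WT core replicate 3, -0.53 ± 0.25, adjusted p = 0.11) and Adamts8 in KO (-0.55 ± 0.16, adjusted p = 0.026). In the fit without WT core replicate 3, 7 were called higher and 0 lower in WT (23.6% and 16.6%) and 9 higher and 3 lower in KO (29.6% and 27.8%). Adamts12 rose by 4.64 ± 0.62 and 5.71 ± 0.67 (adjusted p = 0.00013 and 0.00019), and Adamts7 by 3.30 ± 0.50 and 3.77 ± 0.52 (adjusted p = 0.00025 and 0.00024). Adamts10 rose by 1.27 ± 0.21 and 1.15 ± 0.21 (adjusted p = 0.00046 and 0.0013), with 22.5, 24.1 and 43.2 CPM in the WT core, the last in replicate 3. The 8 matrix metalloproteases listed are not the whole family and, like the other lists, were chosen with earlier results of these data known. All 8 were called higher in both cores, with medians of 4.72 in WT and 4.96 in KO, where 29.1% and 19.7% of all tested genes were called higher. Leaving out WT core replicate 3 also called all 8 in both (23.6% and 29.6%), with medians of 3.76 and 4.96. Mmp12, the macrophage elastase, was the 1 gene of these lists besides Trem2 that edgeR called between genotypes with all libraries. It was lower in KO by -4.68 ± 0.67 in the mean over regions (adjusted p = 0.0095; -3.99 ± 0.72, adjusted p = 0.0088 without WT core replicate 3). Its level was 203, 330 and 2751 CPM in the WT core, the last in replicate 3, and 25.7 to 54.5 CPM in the KO core. Contralaterally it was 0.763 to 2.09 CPM in WT and 0 to 0.113 CPM in KO, near the floor. Without WT core replicate 3 its core difference was -2.77 ± 0.65 (adjusted p = 0.042).

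The genes whose levels ran most like each member were sought among 13092 tested genes, by Pearson's r of log2 CPM over the 17 libraries without WT core replicate 3. These libraries share the regional contrast, so high values are common and are given as a description. Adam8 ran with the actin capping gene Capg (r = 0.992), the scavenger receptor Msr1 (0.990) and the immune adaptor Lat2 (0.990). Adam17 ran with the immune adaptor Fyb (0.995), the phosphatase Inpp5d (0.995) and Edem1 (0.994). Adam12 ran with the collagen chaperone Serpinh1 (0.990), biglycan (Bgn, 0.986) and fibulin 2 (Fbln2, 0.984).

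Adam9 was nearest to Mapkapk2 (0.986), Tmod3 (0.986) and the integrin Itgb1 (0.985), Adam10 to Osbpl11 (0.987), Sh3glb1 (0.984) and the myosin Myh9 (0.983), and Adam15 to Glmp (0.981), the lysosomal enzyme Galns (0.979) and Arhgdia (0.979). Values were lower for Adamts1, with Cntrl (0.932), Spry1 (0.928) and Denn2b (0.920), and for Adamts4, with Adamtsl4 (0.933), Pacs2 (0.930) and the oligodendrocyte claudin Cldn11 (0.928). Over all 18 libraries these r lay between 0.882 and 0.996. Among the members themselves r over the 17 libraries was 0.989 for Adam9 and Adam10 and 0.961 for Adam10 and Adam17, while Adamts4 reached at most 0.318, with Adamts1.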

How the data were processed

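Polyadenylated RNA from 18 mouse brain libraries was analysed, with groups taken from the genotype, region and replicate number in the labels. The authors deposited expected counts per gene. Values with decimals occurred for 3678 genes (19.4%), none of them among the 8 described. The planned tests assumed whole counts, so these estimated counts were rounded first. The authors also deposited TPM, used here for levels between genes and for some alternatives. HISAT2 2.0.4, Bowtie2, Subread and the build GRCm39 (mm39) appear in the submitters' processing notes without a role. Which tool produced the counts was not given in the sources used here. Near-identical and overlapping genes are uncertain, because no source says that strand was used.

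The main test was edgeR 4.0.16 (R 4.3.3): genes filtered with filterByExpr, TMM factors, a robust quasi-likelihood fit and 1 mean per group. SE is the absolute log2 fold change over the square root of F. The fit was tested on simulated data with known changes. No 2 libraries were identical. Alternatives used DESeq2 1.42.0 and limma 3.58.1 (voom, or log2 of TPM with a pseudocount of 1 or 0.1), no TMM, no filter, the compared libraries alone, a replicate block and each library left out. Another 3, which combine a setting with leaving out WT core replicate 3, were added after seeing the data. Same-numbered libraries deviated together in WT peri-infarct and contralateral tissue (r of 0.386 to 0.436, each highest with its own number), so the block is given beside that comparison. The labels state no such pairing, which rests on the values.

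The 8 members and all lists were chosen with earlier results of these data known. Named genes are the 8 members, Trem2, from each pathway list the 2 smallest p in the WT core (without replicate 3) and the 2 smallest in the KO core, any list gene called between genotypes, and the 3 most similar genes of each member (mean log2 CPM of at least 1, prior count 2). List genes outside this rule (Adam11, Adam21, Adamtsl1, Adamts8, Tspan33, App, Nrg1, Cx3cl1, L1cam, Aph1b, Bace1, Bcan, Timp3, Timp4 and Reck) were chosen after their values were seen. Genes that were called between genotypes only without WT core replicate 3 were not described. Motifs were searched in the 250 bases before the start in a RefSeq promoter table of assembly GRCm38.p6, another build than the one in the notes.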

Additional observations from a re-analysis of the deposited data

How the results depend on the processing

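The 7, 6, 6, 1 and 1 calls in WT core, KO core and WT core over peri-infarct tissue and in the 2 peri-infarct zones came from 21 results, which kept their direction in all 546 values computed under alternatives, and 462 of these kept the call. Leaving out 1 library gave 0 to 5 calls in the WT and 0 to 7 in the KO peri-infarct zone, 7 to 7 in the WT and 4 to 7 in the KO core, 0 to 8 and 0 to 6 in WT and KO core against peri-infarct tissue, 0 to 0 between genotypes in each region and in each interaction, and 0 to 1 in the genotype mean. In the WT peri-infarct zone DESeq2, no TMM, TPM with a pseudocount of 1 or 0.1 and the replicate block each called 2 (3.6% to 6.99% of tested genes called higher) and the compared libraries alone 5 (10.6%). In the KO zone these gave 2 (DESeq2), 2 (no TMM), 2 and 3 (TPM) and 8 (compared libraries), against 6.49%, 6.07%, 7.93%, 9.3% and 14.2% of tested genes, with 0 for voom and 0 for no filter (1.86% and 2.18%). WT core against contralateral fell to 0 with the compared libraries alone (0% of tested genes). WT core against peri-infarct tissue gave 0 with those libraries, 0 with voom (0% in both) and 2 with TPM + 0.1 (3.18%), and KO gave 2 with DESeq2 (4.4%), 1 with no TMM (1.16%), 1 with no filter (0.207%), 6 with the compared libraries (21%), 3 and 3 with TPM (8.19% and 6.43%) and 1 with voom (0.157%). The genotype mean gave 1 with DESeq2 (1.66% called lower).

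With the replicate block, pairing libraries by a number they may only share, WT core against peri-infarct tissue went from 6 calls to 0 (0% of tested genes). For regional comparisons and interactions the block was the replicate number within a genotype. For genotype comparisons it was the number shared by WT and KO, which are different animals. Animals shared across regions were therefore not modelled in the genotype mean. Combined with leaving out WT core replicate 3, chosen after seeing the data, the block called 5, 7, 3, 6 and 1 in the WT and KO peri-infarct zones, WT and KO core against peri-infarct tissue and the genotype mean (14.1%, 13.8%, 4.47% and 24.4% of tested genes called higher, 4.57% lower in the mean). DESeq2 without that library called 7, 8 and 6 in the WT and KO zones and KO core against peri-infarct tissue (14.5%, 16.1% and 22.4%), 4 in the genotype mean and 1 each between genotypes in the peri-infarct zone (Adam8) and the core (Adam12). No TMM without it called 5, 8, 6 and 2 in the WT zone, KO zone, KO core against peri-infarct tissue (15%, 15.5% and 23%) and genotype mean (Adam8 lower, 3.4%, and Adamts1 higher, 5.13%). The cause of these differences was not tested.

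Signs turned among uncalled values. TPM + 1 and + 0.1 gave 0.0074 and 0.0082 for Adamts1 between genotypes in the core, 0.067 and 0.069 for Adam10's peri-infarct interaction (DESeq2 0.0074) and 0.11 and 0.11 for its core interaction. These TPM settings moved the median of all genes in the WT core from -0.03 to -0.34 and -0.42. Leaving out 1 library gave, between genotypes, -0.28 to 0.0375 (Adam12) and -0.17 to 0.0124 (Adam15) contralaterally, -0.18 to 0.49 (Adam12) in the peri-infarct zone and -0.75 to 0.0778 (Adam9), -0.64 to 0.0945 (Adam10) and -0.55 to 0.12 (Adamts1) in the core. Adamts4 in the WT core ranged from -0.45 to 0.0777. The peri-infarct interaction ranged from -1.01 to 0.21 (Adam8), -0.0783 to 0.0526 (Adam10) and -0.0522 to 0.62 (Adam12), and the core interaction from -1.47 to 0.61 (Adam8), -0.50 to 0.22 (Adam10) and -0.89 to 0.21 (Adam17). With 3 libraries a group and 1 library standing apart, small differences could be missed in the fit to all 18 libraries. Without WT core replicate 3 edgeR called some, such as 0.35 for Adam10 in the KO peri-infarct zone (adjusted p = 0.013).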
